A study of Mus musculus with 18 samples.

Results

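The SOCS family feedback inhibitors Socs1, Socs2, Socs3 and Cish were followed in primary mouse hepatocytes over 24 h of stimulation with IL-6 and then HGF. The members were chosen by name, and every probe set carrying 1 of the 4 symbols alone was taken. All 4 genes were measured among 18193 genes, by 11 of 45101 probe sets: 1 for Socs1, 6 for Socs2, 3 for Socs3 and 1 for Cish.

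SOCS proteins are the brake of cytokine signalling. A cytokine receptor activates JAK kinases, these phosphorylate STAT transcription factors, and the STATs switch on SOCS genes, whose products bind the receptor or the kinase through an SH2 domain and recruit a ubiquitin ligase through the SOCS box. SOCS3 acts on gp130, the signalling chain of the IL-6 receptor, and on JAKs; SOCS1 inhibits JAKs directly and is best known from interferon signalling; SOCS2 and CIS, the product of Cish, are known in liver as STAT5 targets that restrain growth hormone signalling.

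The cells were hepatocytes of male C57BL/6N mice aged 8 to 12 weeks, cultured below confluence on collagen I, from 1 animal or a pool of up to 3. Dexamethasone at 100 nM was in the serum-free medium for 24 h and was left out of the starvation medium for the 4 h before stimulation. The 18 one-colour Affymetrix arrays comprised 6 untreated controls at -5, 0, 4, 8, 12 and 24 h, 4 arrays with rhIL-6 at 40 ng/ml at 1, 2, 3 and 4 h, and 8 arrays at 5, 6, 7, 8, 9, 10, 12 and 24 h on which rmHGF at 40 ng/ml had been added at 4 h. By the protocol's hours the control at -5 h preceded the removal of dexamethasone. HGF, the ligand of the receptor Met, is a growth factor for hepatocytes, and IL-6 drives the acute-phase response through STAT3. None of the arrays analysed here had HGF alone or IL-6 alone after 4 h, so HGF and longer exposure to IL-6 cannot be told apart. Each stimulus and hour was 1 array, so hours under 1 stimulus served as its replicates, and each p-value reflects variation among dishes and hours alone.

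Levels are log2 signals of a probe set, and array medians lay between 5.47 and 5.57. Albumin, Alb, lay between 14.67 and 14.89 on all arrays and Apob between 11.59 and 12.70, both high as in hepatocytes, whereas the hepatocyte marker Ass1 was dim, between 3.55 and 4.48. Markers of Kupffer cells, the liver's macrophages, were also present, with Cd5l between 8.48 and 9.66 and Timd4 at the dim end between 3.06 and 4.18. The array of IL-6 plus HGF at 10 h stood apart from its neighbours: 120 genes were at least 1 log2 above the mean of the arrays at 9 and 12 h, against 0 to 14 genes on the other 9 inner stimulated arrays measured the same way. Means, slopes, changes of effect and correlations that include that array are given with it and, for several of them, also without it.

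Windows at a transcript start of 3 members from RefSeq (GRCm38.p6) are shown because STATs act through short sites in promoters. They were not set against the response of the members. Capitals mark matches to TTCNNNGAA, the palindromic STAT site, or to GAAA, any 2 bases and GAAA, a core of the interferon response element; both strands were searched. The Socs3 window is chr11:117969367-117969616 on the minus strand and the Socs1 window chr16:10785537-10785786 on the minus strand, each the 250 bases before a transcript start. The Socs3 window lies inside the span of its gene, chr11:117966079-117970336, so the start used is not the outermost one. The Cish window is chr9:107296409-107296688 on the plus strand, with 250 bases before and 30 after the start. The starts used for Socs1 and Cish are at the ends of their gene spans, so the Socs3 window is not of the same kind. Socs2 had no matched entry in the promoter table.

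Socs3: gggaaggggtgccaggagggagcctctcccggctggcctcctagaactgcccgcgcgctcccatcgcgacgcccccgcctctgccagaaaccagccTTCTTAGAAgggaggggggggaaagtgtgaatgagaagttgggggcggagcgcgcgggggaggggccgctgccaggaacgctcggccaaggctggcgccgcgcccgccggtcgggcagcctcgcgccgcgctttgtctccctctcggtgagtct

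Cish: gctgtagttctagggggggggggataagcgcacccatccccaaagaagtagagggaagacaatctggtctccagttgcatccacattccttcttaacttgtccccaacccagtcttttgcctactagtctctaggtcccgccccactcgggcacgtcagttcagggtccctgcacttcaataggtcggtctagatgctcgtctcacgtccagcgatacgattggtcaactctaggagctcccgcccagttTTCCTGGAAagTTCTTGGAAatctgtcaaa

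Socs1: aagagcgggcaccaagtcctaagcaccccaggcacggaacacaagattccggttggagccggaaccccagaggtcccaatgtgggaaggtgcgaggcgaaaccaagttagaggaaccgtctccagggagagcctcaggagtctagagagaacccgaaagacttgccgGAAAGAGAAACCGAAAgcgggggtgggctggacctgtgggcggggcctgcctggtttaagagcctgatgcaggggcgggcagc

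Socs3 held 1 match to TTCNNNGAA, TTCTTAGAA, beginning 154 bases before the start used, which lies inside the gene. Cish held 2, TTCCTGGAA from the first transcribed base and TTCTTGGAA from base 12. Socs1 held 0 matches to that motif and 2 overlapping matches to the interferon core, GAAAGAGAAA and GAAACCGAAA, beginning 83 and 77 bases before the start. Of 32851 mouse promoter windows of 300 bases, 8.3% held at least 1 TTCNNNGAA and 0.46% more than 1; 3.44% held the interferon core and 0.23% more than 1. The STAT site with 4 bases between TTC and GAA, in 6.95% of windows, had 0 matches in the 3 windows. These matches describe the letters of the windows and no binding was measured.

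Socs3 had the widest range of the 4 members. Its brightest probe set read 7.56, 7.60, 7.12, 7.47, 7.28 and 7.23 in control at -5, 0, 4, 8, 12 and 24 h. With IL-6 alone it read 11.09, 10.80, 10.89 and 10.69 at 1, 2, 3 and 4 h, and after HGF was added 10.77, 10.59, 10.43, 10.31, 9.99, 11.04, 9.80 and 9.45 at 5, 6, 7, 8, 9, 10, 12 and 24 h. This probe set was thus already at its highest on the first stimulated array, every stimulated array lay above every control, and the lowest stimulated value, at 24 h, was still above the highest control value of 7.60.

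Against control read by interpolation between control hours, Socs3 was 12.2-fold higher at 1 h and 11.9-fold at 4 h. It was 11.8-fold higher at 5 h, 7.16-fold at 8 h, 5.95-fold at 9 h, 12.7-fold at 10 h, 5.74-fold at 12 h and 4.68-fold at 24 h. The excess was between 10.9-fold and 12.5-fold through the first 5 hours, was smaller on each array from 6 to 9 h, and the array at 10 h broke that order.

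The other probe sets of Socs3 also rose with IL-6, each at its own brightness, but the late course differed. From 12 to 24 h the excess over interpolated control fell on the brightest probe set, from 5.74-fold to 4.68-fold. It went from 5.14-fold to 6.25-fold on 1456212_x_at and from 2.88-fold to 2.96-fold on 1416576_at. Probe set 1416576_at read at most 7.00 in control and 9.73, 9.27, 9.41 and 9.20 with IL-6, while 1456212_x_at read at most 6.36 in control and 9.78, 9.88, 9.62 and 9.42 with IL-6. At 10 h the step above the mean of the arrays at 9 and 12 h was 1.14 for the brightest probe set, 1455899_x_at, 0.85 for 1456212_x_at and 0.47 for 1416576_at. The suffix _x_at marks probe sets with probes that can also match other transcripts. The step was smallest on the probe set without that mark, and the part of such matches in the step was not tested.

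**Figure D1:**
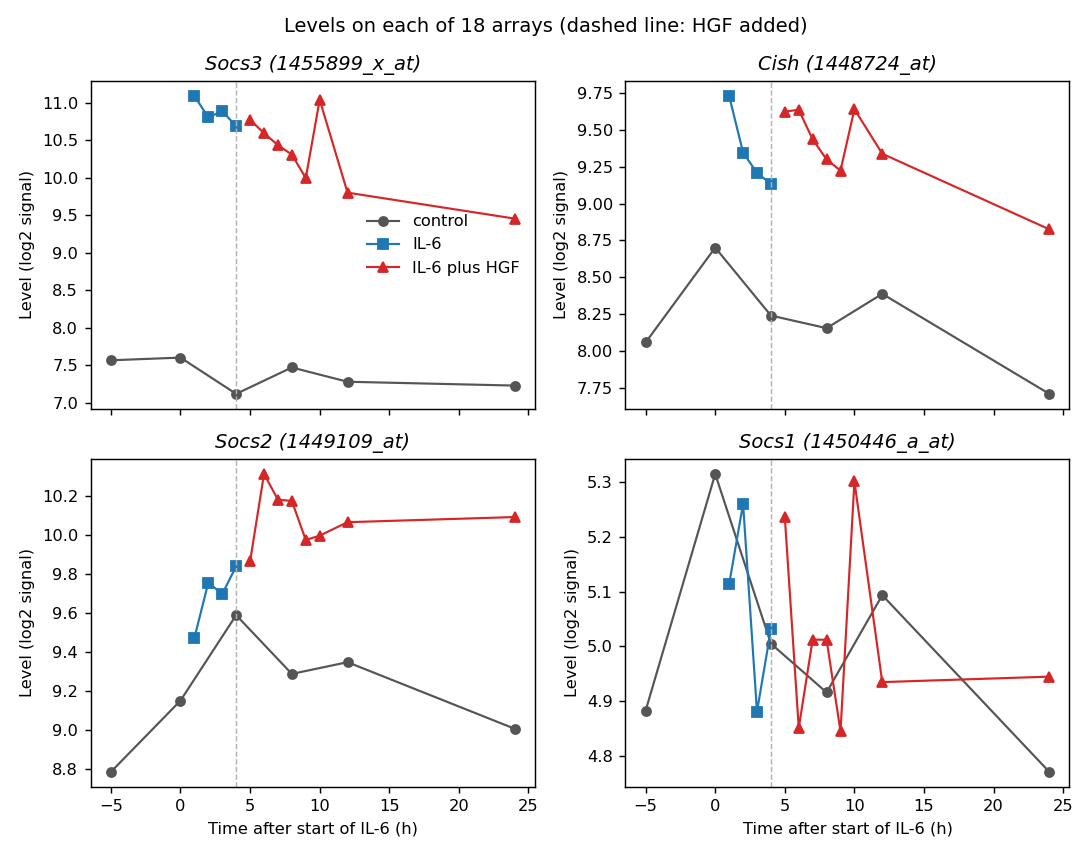
Level (log2 signal, vertical axis, its own scale in each panel) of Socs3, Cish, Socs2 and Socs1 by hour (horizontal axis) on each of 18 arrays, 1 point an array, for control (grey circles), IL-6 (blue squares) and IL-6 plus HGF (red triangles); the dashed line marks 4 h. All stimulated points of Socs3 and Cish lie above all their control points, 11 of 12 do so for Socs2, and Socs1 moves within 4.77 to 5.32 in every condition.

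Cish, which was 1 probe set, read 8.06, 8.70, 8.24, 8.15, 8.39 and 7.71 in control at -5, 0, 4, 8, 12 and 24 h. With IL-6 it read 9.73, 9.35, 9.21 and 9.13 at 1 to 4 h, and with HGF added 9.62, 9.64, 9.44, 9.30, 9.22, 9.64, 9.34 and 8.83 at 5 to 24 h. Its level was highest at 1 h, was lower on each later IL-6 array, and was higher again on the first arrays after HGF. The control itself was lowest at 24 h, so the excess over interpolated control was 2.21-fold at 1 h, 1.86-fold at 4 h, 2.71-fold at 6 h, 2.02-fold at 9 h, 1.93-fold at 12 h and 2.17-fold at 24 h. The stimulated arrays did not overlap the controls, with 8.83 the lowest of the 12 and 8.70 the highest of the 6.

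Socs2 changed by smaller steps. Its brightest probe set, 1449109_at, read 8.79, 9.15, 9.59, 9.29, 9.35 and 9.01 in control at -5, 0, 4, 8, 12 and 24 h. It read 9.47, 9.76, 9.70 and 9.84 with IL-6, and 9.87, 10.31, 10.18, 10.18, 9.98, 10.00, 10.07 and 10.09 at 5 to 24 h with HGF added. Its highest value came at 6 h, and 11 of 12 stimulated arrays lay above the highest control; the IL-6 array at 1 h, at 9.47, lay below the control at 4 h, at 9.59. Over interpolated control it was 1.16-fold higher at 1 h, 1.19-fold at 4 h, 1.27-fold at 5 h, 1.83-fold at 6 h, 1.85-fold at 8 h and 2.12-fold at 24 h.

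Socs1 showed no separation by condition. It read 4.88, 5.32, 5.00, 4.92, 5.09 and 4.77 in control at -5 to 24 h, 5.11, 5.26, 4.88 and 5.03 with IL-6, and 5.24, 4.85, 5.01, 5.01, 4.85, 5.30, 4.93 and 4.94 with HGF added. The highest value of all was the control at 0 h, and 0 of 12 stimulated arrays lay above it. The mean of this probe set was 5.02, at percentile 42.1 of all probe sets and below the median of all values, 5.53; detection calls were not used here.

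No overlap between the 12 stimulated and the 6 control arrays, with stimulation higher, was seen for 2 of the 4 members, Socs3 and Cish, and for 0.209% of all genes. The order of the mean levels by window was read for each gene. An SD over 2 to 5 arrays at different hours is a description of spread and no test of separation. For Socs3 it was control at 8 to 24 h (7.33 ± 0.13, SD, n = 3), control at 0 and 4 h (7.36 ± 0.34, n = 2), IL-6 plus HGF at 8 to 24 h (10.12 ± 0.60, n = 5), IL-6 plus HGF at 5 to 7 h (10.60 ± 0.17, n = 3) and IL-6 at 1 to 4 h (10.87 ± 0.17, n = 4). The control windows differed by less than their SDs, and the step from control to stimulated arrays exceeded every SD. IL-6 lay above the HGF window at 5 to 7 h by more than their SDs, whereas the HGF windows differed by less than the larger SD; without the array at 10 h the later one was 9.89 ± 0.36 (n = 4), and the difference exceeded both SDs. For Cish the order was control at 8 to 24 h (8.08 ± 0.35, SD), control at 0 and 4 h (8.47 ± 0.33), IL-6 plus HGF at 8 to 24 h (9.27 ± 0.29, or 9.17 ± 0.24 without 10 h), IL-6 (9.35 ± 0.27) and IL-6 plus HGF at 5 to 7 h (9.57 ± 0.11). The means of the control windows of Cish, and of control and stimulated windows, stood further apart than the SDs on both sides. Those of neighbouring stimulated windows did not. Single values of the control windows overlapped, from 8.24 at 0 and 4 h and up to 8.39 at 8 to 24 h. For Socs2 the order was control at 8 to 24 h (9.21 ± 0.18), control at 0 and 4 h (9.37 ± 0.31), IL-6 (9.69 ± 0.16), IL-6 plus HGF at 8 to 24 h (10.06 ± 0.08) and at 5 to 7 h (10.12 ± 0.23). For Socs2 the steps from control at 0 and 4 h to IL-6 and from IL-6 to the later HGF window exceeded the SDs on both sides. The control windows, and the HGF windows, differed by less than the larger SD. Single Socs2 values of control at 0 and 4 h (up to 9.59) and of IL-6 (from 9.47) overlapped. For Socs1 all windows lay between 4.93 and 5.16 with SDs of 0.16 to 0.22. Without the array at 10 h, its window of IL-6 plus HGF at 8 to 24 h went from 5.01 ± 0.18 to 4.93 ± 0.07.

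The arrays with IL-6 alone were compared with control at 0 and 4 h to ask which inhibitors respond to the cytokine itself. Of the 4 members only Socs3 passed the threshold of 0.05 (limma, Benjamini-Hochberg over 18193 genes), as did 0.0220% of all genes. Socs3 was 11.4-fold higher, by 3.51 ± 0.32 log2 (SE; adjusted p = 2.44e-05), and was between 3.27 and 3.75 when each of the 6 arrays was left out. Its 3 probe sets differed by 3.51, 3.49 and 2.76, each past the threshold when 45037 probe sets were tested in limma, as were 0.0266% of them on the higher side (adjusted p from 8.02e-07 to 8.32e-05).

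Cish was 1.85-fold higher on the 4 IL-6 arrays, by 0.88 ± 0.23 log2 (SE; 95% interval 0.40 to 1.37), without passing in limma (adjusted p = 0.71). It passed in limma against all 5 controls from 0 to 24 h (1.12, adjusted p = 0.0168). It also passed in limma in the 6 arrays of 0 to 4 h with hour as a covariate (0.96, SE 0.095, adjusted p = 0.0326). The call of Cish thus depended on which arrays and covariates entered the fit and its spread. All 4 IL-6 arrays of Cish and of Socs3 lay above all 6 controls, which held for 1.17% of genes. Socs2 differed by 0.32 ± 0.14 (95% interval 0.02 to 0.62, limma adjusted p = 1), a value of 0.10 without the control at 0 h and 0.54 without that at 4 h. Socs1 differed by -0.09 ± 0.14 (-0.39 to 0.21, adjusted p = 1). Of the 4 members 3 had an unadjusted p under 0.05, as had 3.61% of all genes.

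Markers of Kupffer cells differed over the same hours. In limma 0 of 14 passed (9 at an unadjusted p under 0.05), 13 of 14 had negative differences, and the median was -0.48 against -0.01 for all genes. Their summed linear signal ran from 3440 to 3666 in control at 0 and 4 h, from 2508 to 2777 with IL-6 and from 2440 to 2967 with IL-6 plus HGF, and it was 2636 in the control at -5 h. The sums were 2636 and 2607 in the controls at -5 h and 24 h. On these 2 arrays Socs3 read 7.56 and 7.23, and Cish 8.06 and 7.71. By the protocol's hours the array at -5 h preceded the removal of dexamethasone, and the array at 24 h was the latest control. These values therefore cannot separate Kupffer cell RNA from medium or culture time. The part of Kupffer cell RNA in the members' differences was not tested. Fewer cells of a type and less RNA per cell cannot be told apart in bulk samples.

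The later comparison paired the 3 hours, 8, 12 and 24 h, at which cells with both agents and untreated cells were measured. Socs3, Cish and Socs2 were higher and passed in limma, 3 of 4 members, where 2.53% of all genes were called higher and 6.46% lower. Each was higher in 3 of 3 pairs, which held for 23.6% of genes. Socs3 was 5.77-fold higher (2.53 ± 0.12 log2, SE; adjusted p = 0.00102), Cish 2.10-fold (1.07 ± 0.08; adjusted p = 0.00175) and Socs2 1.86-fold (0.90 ± 0.09; adjusted p = 0.00473). Leaving out each pair moved Socs3 between 2.37 and 2.68, Cish between 1.03 and 1.13 and Socs2 between 0.80 and 0.99, all past the threshold. Without the block for the hour Cish missed it (limma adjusted p = 0.078). Socs1 differed by 0.04 ± 0.09 (95% interval -0.18 to 0.25; limma adjusted p = 0.837).

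Cell type markers also differed at these hours. Of 9 hepatocyte markers 8 had negative differences, 3 were lower in limma, Cps1 (-1.49), Tat (-0.85) and the transcription factor gene Hnf4a (-0.67), and the fibrinogen chain Fgb was higher (0.58), while Alb differed by -0.04 (adjusted p = 0.751). Of 14 Kupffer markers 14 had negative differences and 1, Cd68 (-0.73), passed. Of 10 endothelial markers 2 were lower, Clec4g (-0.70) and Oit3 (-0.53), and of 5 cholangiocyte markers 1 was higher, Sox9 (0.55). In the stellate and the lymphocyte lists 0 genes passed in limma, with 3 and 2 at an unadjusted p under 0.05. The part of these markers' cells in the members' differences was not tested.

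The probe sets of Socs2 did not all report the change. At the matched hours 4 of 6 passed in limma, where 1.46% of 45037 probe sets were called higher: 1449109_at (0.90, adjusted p = 0.00664), 1418507_s_at (0.83, 0.025), 1446085_at (0.70, 0.00996) and 1442586_at (0.50, 0.0296). Probe set 1438470_at differed by 0.48 (adjusted p = 0.0903) and 1441476_at by 0.03 (adjusted p = 0.862). The last is the dimmest, with a mean of 3.19, at the 9.8th percentile of probe sets, and a range of 0.27 over all arrays. With the 6 probe sets averaged Socs2 differed by 0.57 (adjusted p = 0.00891 over genes). All 3 probe sets of Socs3 passed, with differences of 2.57, 2.53 and 1.78.

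**Figure D2:**
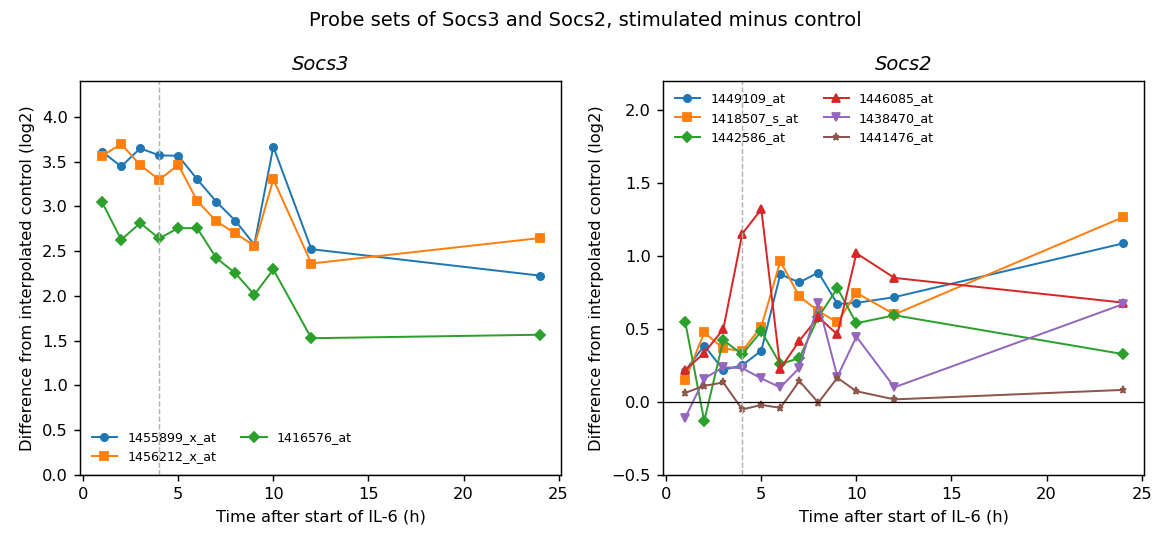
Difference of each stimulated array from control interpolated between control hours (log2, vertical axis) by hour (horizontal axis) for the 3 probe sets of Socs3 (left) and the 6 of Socs2 (right), 1 line a probe set; the dashed line marks the addition of HGF at 4 h. The Socs3 probe sets share a decline from 5 to 9 h and a rise at 10 h, and the 2 brightest Socs2 probe sets step up at 6 h while 1441476_at stays near 0.

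The arrays on either side of the addition of HGF were compared next, IL-6 plus HGF at 5 to 7 h against IL-6 alone at 1 to 4 h. None of the 4 members passed in limma (0 of 4, with 2 at an unadjusted p under 0.05, as had 14.9% of genes), and 0.511% of genes did. Socs2 was higher by 0.43 ± 0.12 (SE; 95% interval 0.16 to 0.69; limma adjusted p = 0.135). That value is of the brightest probe set; 1418507_s_at differed by 0.35, the other 4 by -0.18 to 0.05, and all 6 averaged by 0.11 (limma adjusted p = 0.468). Cish differed by 0.21 ± 0.13 (-0.09 to 0.51; 0.511), or 0.34 with the first IL-6 hour left out and 0.14 with the fourth left out, Socs3 by -0.27 ± 0.11 (-0.51 to -0.02; 0.29) and Socs1 by -0.04 ± 0.11 (-0.29 to 0.21; 0.916).

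The change of the stimulus effect was tested in the same fit of 17 arrays as IL-6 plus HGF at 5 to 24 h minus control at 8 to 24 h, less IL-6 at 1 to 4 h minus control at 0 and 4 h. The HGF arrays at 5 to 7 h were thus set against later controls. Again 0 of 4 members passed in limma, with 1 at an unadjusted p under 0.05 (7.8% of genes), as against 0.0220% of genes past the threshold. The estimate was 0.55 ± 0.18 for Socs2 (95% interval 0.17 to 0.93; adjusted p = 0.383), -0.53 ± 0.40 for Socs3 (-1.38 to 0.32; 0.832), 0.41 ± 0.29 for Cish (-0.20 to 1.02; 0.819) and 0.18 ± 0.18 for Socs1 (-0.20 to 0.56; 0.894). Socs2 and Socs3 therefore had estimates of opposite sign that did not pass. Single controls moved them: without the control at 0 h the estimates were 0.77 for Socs2, -0.78 for Socs3 and 0.18 for Cish, and without that at 4 h 0.33, -0.29 and 0.64; Cish was 0.22 without the control at 24 h. With the 6 probe sets averaged Socs2 was 0.31 (limma adjusted p = 0.36). Without the array at 10 h the estimates were -0.64 for Socs3, 0.56 for Socs2, 0.37 for Cish and 0.14 for Socs1.

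Within the 8 arrays of IL-6 plus HGF, levels were fitted against log2 of the hour, so a slope is the log2 change per doubling of time. Cish fell by 0.33 ± 0.08 per doubling (SE; limma adjusted p = 0.0268), 1 of 4 members, where 4.84% of genes were called lower. Without the array at 10 h it was -0.34 ± 0.06 (adjusted p = 0.00366). The call was lost without the array at 5 h (0.0594), 6 h (0.0683) or 24 h, where the slope was -0.21 ± 0.14 (adjusted p = 0.558). These slopes are of the level and not of the excess over control. From 12 to 24 h Cish in control went from 8.39 to 7.71. Its excess over interpolated control went from 1.93-fold to 2.17-fold. Socs3 had a steeper slope, -0.56 ± 0.16, that just missed the threshold (limma adjusted p = 0.0538). Without the array at 10 h it was -0.60 ± 0.06 and passed (adjusted p = 0.000482), and without the array at 24 h it was -0.48 ± 0.29 (0.505). With all arrays it also passed without dim genes (0.0457), with its probe sets averaged (-0.50, 0.0265) and against hours in place of their log2 (0.0474), so the call turned on several choices. Probe set 1416576_at, with the smallest step at 10 h, passed with all arrays (-0.57 ± 0.08, limma adjusted p = 0.00454; 2.40% of 45037 probe sets were called lower), and 1456212_x_at had a shallower slope that did not (-0.37 ± 0.13, 0.17). Socs2 showed a slope of -0.00 ± 0.08 (95% interval -0.17 to 0.17; 0.994) and Socs1 of -0.05 ± 0.09 (0.802).

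On the array at 10 h Socs1 lay 0.41, Cish 0.36 and Socs2 -0.02 from the mean of the arrays at 9 and 12 h, beside 1.14 for Socs3. The nuclear RNAs Neat1 and Malat1, which were named after their values were seen, lay 2.36 and 1.63 above that mean on the same array. In all, 77 genes, with Socs3 itself counted, had a step at or above that of Socs3. The part of that array's overall shift in the Socs3 value was not tested.

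In control, levels were fitted against log2 of the hour plus 1 over 5 arrays from 0 to 24 h. None of the members passed in limma (0 of 4), beside 3.61% of genes, and 2 of 4 had an unadjusted p under 0.05, as had 22.4% of genes. Cish changed by -0.17 ± 0.05 per doubling (SE; adjusted p = 0.1), Socs1 by -0.10 ± 0.03 (0.148), Socs3 by -0.07 ± 0.04 (0.41) and Socs2 by -0.02 ± 0.05 (0.882). Between the single controls at -5 h and 0 h, the interval in which dexamethasone was removed, Socs2 went from 8.79 to 9.15, Cish from 8.06 to 8.70, Socs1 from 4.88 to 5.32 and Socs3 from 7.56 to 7.60, with no replicate to test the steps.

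Of the other SOCS genes, Socs4, Socs5, Socs6 and Socs7, 1 of 4 passed in limma at the matched hours. Socs5, a SOCS protein with a long amino-terminal region, was 1.59-fold higher, at a mean of 10.34 against 9.67 in control (0.67 ± 0.08 log2, SE; adjusted p = 0.00768). Socs7 (0.28, adjusted p = 0.105), Socs6 (0.25, 0.121) and Socs4 (-0.10, 0.55) did not pass. In the first 4 hours with IL-6 0 of 4 passed (1 at an unadjusted p under 0.05), with Socs5 at 0.39 ± 0.14 (adjusted p = 1). Also listed were ubiquitin ligase genes: the elongins Elob and Eloc, the cullins Cul5 and Cul2 and the RING proteins Rnf7 and Rbx1. Of these, 0 of 6 passed in limma in either comparison and 0 had an unadjusted p under 0.05. Their differences at the matched hours ran from -0.10 for Cul5 to 0.17 for Rbx1.

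**Figure D3:**
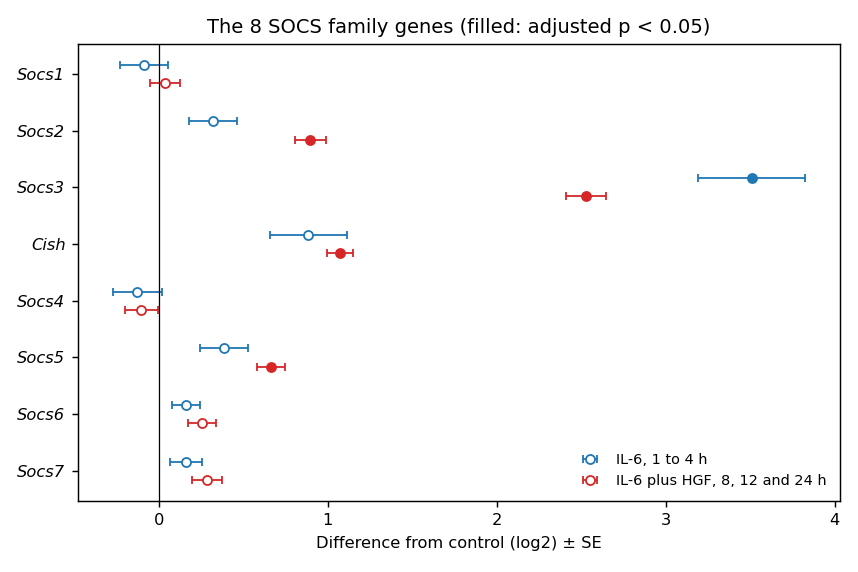
Difference from control (log2, horizontal axis) with its SE for the 8 SOCS family genes (rows), for IL-6 at 1 to 4 h (blue) and IL-6 plus HGF at 8, 12 and 24 h (red); filled points passed an adjusted p of 0.05 in limma. Socs3 is filled in both, and Cish, Socs2 and Socs5 are filled in the later comparison; the difference between the plotted comparisons was not tested.

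Upstream of the members, some genes are named for their role after their values were seen, namely Il6ra, Ghr, Jak1, Stat5a and Stat5b. The IL-6 receptor genes Il6ra and Il6st, which encodes gp130, differed by 0.02 (limma adjusted p = 0.922) and -0.15 (0.33) at the matched hours. Of 19 receptor and kinase genes 1 was higher and 4 lower, beside 2.53% and 6.46% of all genes, with a median of -0.04 against 0.01 for all genes. Osmr, the oncostatin M receptor and a partner of gp130, rose by 0.72 (limma adjusted p = 0.00508). Lifr, another partner of gp130, fell by 0.40 (0.0478), the interferon gamma receptor chain Ifngr1 by 0.73 (0.00982), Met by 0.57 (0.013) and the insulin receptor Insr by 0.79 (0.00366). Of 6 STAT genes only Stat3 passed, 0.50 higher (adjusted p = 0.017), while Stat5a (-0.27, 0.101) and Stat5b (-0.24, 0.0952) did not. The growth hormone receptor Ghr differed by -0.04 (0.852), and Jak1 and Jak2 by -0.12 (0.376) and 0.09 (0.558). In the first 4 hours 0 of the receptor and kinase genes and 0 of the STAT genes passed in limma, with 1 in each list at an unadjusted p under 0.05, Osmr and Stat3.

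Among 14 other inhibitors of JAK and STAT signalling, 0 passed in limma at the matched hours (5 at an unadjusted p under 0.05) and 0 in the first 4 hours (2). The phosphatase gene Ptpn1 came nearest at 0.26 (adjusted p = 0.0756), with Usp18, an inhibitor of the interferon receptor, at -0.45 (0.113) and the transcriptional repressor Bcl6 at -0.20 (0.154).

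Genes known to respond to STAT3 gave a frame for Socs3. Of 26, 10 were higher and 1 lower in limma at the matched hours, beside 2.53% and 6.46% of all genes. The median was 0.33 against 0.01 for all genes. The list was drawn up with earlier results of these data known, and Osmr, Il6st, Stat3 and Jak3 also stand in the lists above. The transcription factor gene Cebpd was higher by 2.03 and Junb by 1.23, the kinase genes Pim1 and Pim3 by 0.78 and 0.68, and the fibrinogen chains Fga and Fgb by 0.81 and 0.58 (adjusted p from 0.00102 to 0.00974). Tnfaip3, an inhibitor of NF-kB signalling, was lower by 0.51 log2, at 8.52 against 9.03 (adjusted p = 0.0181). In the first 4 hours only Cebpd passed (2.76, limma adjusted p = 2.01e-06), beside 0.0220% of all genes called higher. Positive differences were seen in 24 of 26, with a median of 0.53. An unadjusted p under 0.05 was seen for 13 of 26 and for 3.61% of all genes. The differences of Socs3, 3.51 and 2.53, stood beside 2.76 and 2.03 for Cebpd, but those of its probe set 1416576_at were 2.76 and 1.78; the gaps were not tested, and levels of different probe sets are not compared.

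**Figure D4:**
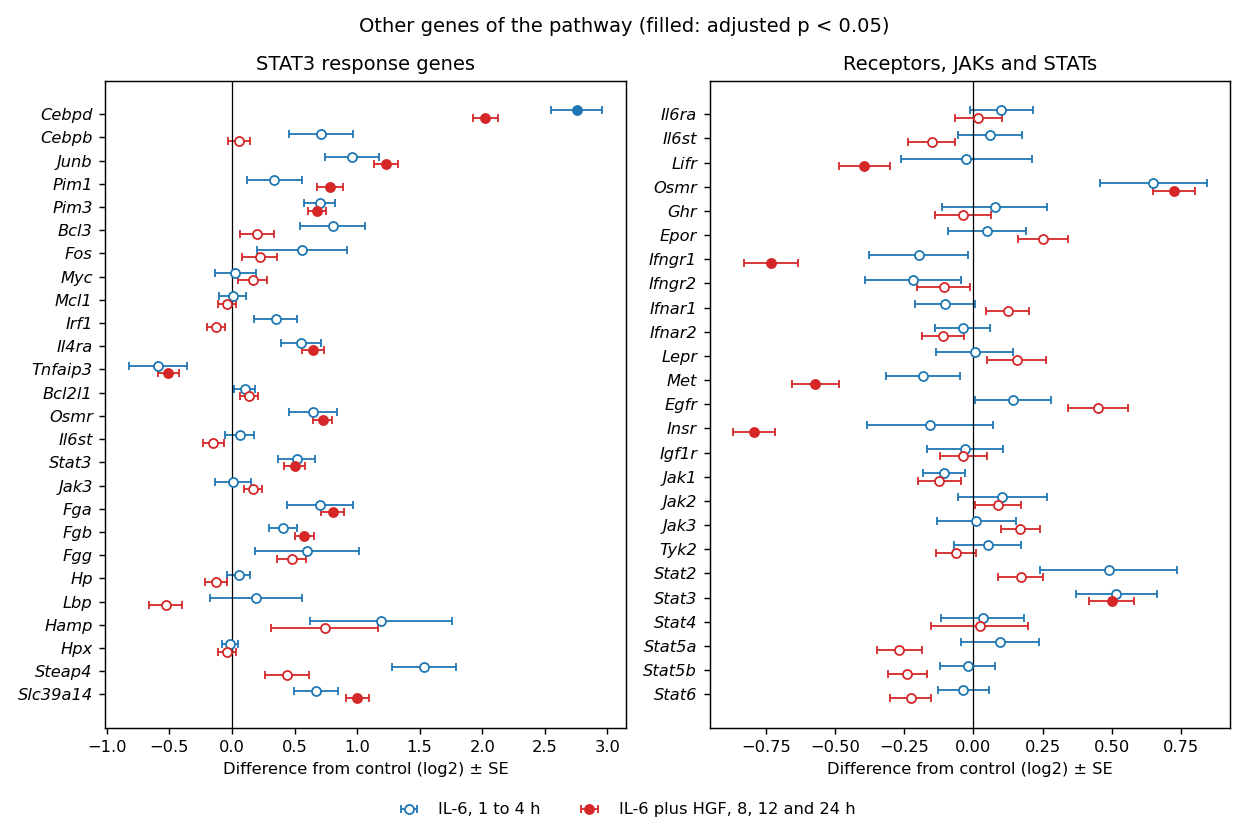
Difference from control (log2, horizontal axis, its own scale in each panel) with its SE for 26 STAT3 response genes (left) and 19 receptor and kinase genes with 6 STAT genes (right), for IL-6 at 1 to 4 h (blue) and IL-6 plus HGF at 8, 12 and 24 h (red); filled points passed an adjusted p of 0.05 in limma. Cebpd alone is filled for IL-6, and 10 genes of the left panel are filled to the right of 0 for IL-6 plus HGF.

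Genes of the pathways that SOCS2, CIS and SOCS1 are known for were read in the same way, against 6.46% of all genes called lower and 2.53% higher. Of 14 growth hormone and STAT5 response genes 2 were higher in limma at the matched hours, Gadd45g (0.65, adjusted p = 0.0202) and Igf1 (0.40, 0.0421), and 3 were lower, Cyp7b1 (-1.15, 0.012), Serpina12 (-0.76, 0.0421) and Onecut1 (-0.36, 0.0413). The list's median was -0.09, and 11 of these 14 genes had negative differences. The list was not divided into genes raised and genes lowered by the pathway, so these signs do not give its direction. Bcl6 and Ghr also stand in the lists above. Of 17 interferon genes 0 were higher and 3 lower, Ifit1 (-0.64), Ifit2 (-0.62) and Ifit3 (-0.51), with a median of -0.15. Of 14 glucocorticoid genes 5 were lower and 0 higher, among them Klf15 (-1.30) and Tat (-0.85). In the first 4 hours 0 genes of these 3 lists passed in limma, with 2 of the growth hormone list and 0 of the others at an unadjusted p under 0.05.

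The genes most alike in pattern were ranked by Pearson correlation over the 18 arrays among 2125 genes that varied by an SD of at least 0.3. The arrays share controls and the time course, so r is a description, and r over the 12 stimulated arrays is given beside it. Socs3 was most like Cebpd (r = 0.958, rho = 0.86; 0.574 over the 12), then Cish (0.932, 0.849; 0.69), Gcnt2 (0.927, 0.515; -0.469), Junb (0.894, 0.707; 0.151) and Foxq1 (0.881, 0.789; 0.569). The resemblance of Gcnt2 and Junb to Socs3 thus lay in the step between control and stimulated arrays and not in the course among the stimulated ones. Cish was most like Junb (0.94, 0.884; 0.662), Socs3, Noct (0.924, 0.909; 0.867), Bhlhe40 (0.909, 0.895; 0.873) and Sh3bp2 (0.901, 0.87; 0.822). Socs2 was most like Rdh10 (0.914, 0.862; 0.748), Il13ra1 (0.91, 0.874; 0.748), Osmr (0.882, 0.872; 0.617), Ier3 (0.881, 0.835; 0.76) and Socs5 (0.878, 0.922; 0.899). For Socs1, whose SD over the arrays was only 0.17, the first was Zfp513 (0.818, 0.781; 0.86), followed by Zswim8, Hnrnpdl, Ppan and Neat1 (r from 0.755 to 0.761). Without the array at 10 h, r over the 17 arrays was 0.967 for Socs3 with Cebpd, 0.927 with Cish and 0.888 with Junb. For Socs1 it was 0.778 with Zfp513 and from 0.698 to 0.705 with Zswim8, Hnrnpdl, Ppan and Neat1. Over the 11 stimulated arrays left, Socs3 had 0.671 with Cebpd and -0.031 with Junb, and Socs1 had 0.801 with Zfp513.

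Among the members themselves over the 12 stimulated arrays, Socs3 and Cish had r = 0.69, Socs2 and Socs3 r = -0.541 and Socs2 and Cish r = -0.144. Without the array at 10 h these were 0.652, -0.597 and -0.173. Among stimulated arrays Socs3 was highest with IL-6 alone and Socs2 after the addition of HGF.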

How the data were processed

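Per the labels' protocols, a one-cycle assay put biotin on the RNA. The authors deposited log2 signals for 45101 probe sets on 18 arrays (2.095 to 15.049). How they were summarized and normalized is not given in the sources used here. All arrays had nearly the same distribution (rank by rank within 0.118 of the average), and the values were used unscaled. The number of arrays limits the precision.

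Groups came from stimulus and hour in the labels. Symbols came from the platform annotation, updated through Entrez identifiers (34754 probe sets). Each gene was read by its probe set of highest mean, 64 control probe sets were left out, and probe sets were also tested singly. R 4.3.3 with limma 3.58.1 (lmFit, then eBayes) gave each comparison; p-values were Benjamini-Hochberg adjusted across 18193 genes, called under 0.05, and the code was tested on simulated data. The first comparison and the change of effect used 17 arrays as means of 4 cells; matched hours used 6 arrays with hour as a block. Named genes were the members, members of the lists, and the 5 genes most alike in pattern. The members and lists were chosen with earlier results of these data known. Alternatives were scaling, dim-gene filter, variance model, probe set choice, choice of controls, time scale and leaving out arrays; leaving the array at 10 h out of window means and correlations was added after seeing the data.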

Additional observations from a re-analysis of the deposited data

Results flagged for a closer look

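Of 33 sets of values checked, 4 held an array far from the rest, all on probe sets of Socs2. The sets were 11 probe sets in control at 0 to 24 h, IL-6 and IL-6 plus HGF. The control at -5 h was left out of the sets. Chance flags about 1 set in 20, and hours differ within a set. Probe set 1418507_s_at was lowest with IL-6 at 1 h, at 8.27, with the next IL-6 array at 8.64. Probe set 1446085_at was highest with IL-6 at 4 h, at 5.45, with the next at 4.94. Probe set 1438470_at was highest in control at 0 h, at 4.21, with the next at 3.72. Probe set 1442586_at was lowest in control at 24 h, at 6.10, with the next at 6.37. The brightest Socs2 probe set, and those of Socs1, Socs3 and Cish, had none.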

How the results depend on the processing

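Of 346 alternative values of the members, 321 kept direction and side of the threshold, 4 fell short of it, 6 passed it newly and 15 turned sign. Socs3 with IL-6, and Socs3 and Socs2 at the matched hours, passed in limma under every alternative run. Cish with IL-6 passed at 1.12 against all 5 controls and 0.96 with hour as covariate (left-out arrays: 0.65 to 1.11). At the matched hours Cish, at 1.07, missed the threshold without the time block. The Socs3 trend under IL-6 plus HGF passed at -0.56 without dim genes, -0.50 with all probe sets averaged and -0.065 per hour; left-out arrays gave -0.60 to -0.48, and -0.35 to -0.21 for Cish. Signs turned for the values that follow. Socs1 with IL-6 was 0.052 against all 5 controls (left-out arrays -0.244 to 0.067). At the matched hours Socs1 was -0.009 after quantile normalization and -0.002 after centring (left-out pairs -0.031 to 0.135). Left-out arrays gave Socs1 -0.14 to 0.053 after the addition of HGF and -0.096 to 0.013 for the trend. The Socs2 trend was 0.003 after centring (left-out arrays -0.085 to 0.048), and the control trends were -0.233 to 0.051 for Socs2 and -0.079 to 0.024 for Socs3. The cause of these changes was not tested. Counts of all genes past the threshold ranged, over the other fits and left-out arrays, from 3 to 22 for IL-6 (4 as reported), 142 to 2141 at matched hours (1637), 0 to 26 for the change of effect (4), 0 to 502 after the addition of HGF (93), 244 to 3095 for the trend (2020) and 23 to 1685 in control (657). The labels carry no replicate numbers, and arrays were paired by matched hour alone. Low signal limits what the dimmest probe sets, such as 1441476_at, can show.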
